A study of Mus musculus with 2 samples.

Results

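The variable segments of the T-cell receptor beta chain, the Trbv genes of mouse chromosome 6, were counted in CD4- mature thymocytes of MHC-II0:CD8ab Tg mice. Members were all rows of the gene tables whose symbol begins with Trbv, and there were 35 of them among 48321 genes. All 35 had an entry in GENCODE M21, an annotation of GRCm38 (the build also called mm10), which types 22 of them as V genes and 13 as V pseudogenes. RNA-seq libraries were available for 2 samples, replicates 1 and 2, of the same group on a C57Bl/6 background. These mice lack the MHC class II beta chain (I-Ab-/-) and the endogenous Cd8a and Cd8b1 genes (Cd8 Δab/Δab). They express CD8a and CD8b from the Rosa26 locus (Rosa26 8a/8b), switched on by a Cre recombinase under Cd4 control (Cd4-Cre), which acts from the CD4+CD8+ stage on. The hosts keep MHC class I, on which conventional CD8 T cells are selected, but not the classical class II ligand of CD4 T cells. No age, sex or number of animals per library is given by the labels, and the wild-type libraries of the study were not analysed here. With 1 group there was no comparison between conditions, so the results below are the levels of the segments, how they differ from each other and how well the 2 libraries agree.

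The beta chain is assembled in early thymocytes, where the RAG recombinase first joins a D to a J segment and then a V segment to that DJ join. A productive join is spliced to a constant gene, Trbc1 or Trbc2, and tested as part of the pre-TCR before the alpha chain is rearranged. Each V segment has a leader exon and a V exon, and the V exon ends just after a conserved cysteine codon that opens the third complementarity-determining region, the part of the receptor that varies most. Since each receptor transcript holds a single V segment, the counts on Trbv rows read out which segments a population of T cells uses. Rearranged pseudogene segments cannot encode a working chain. The share of a segment among Trbv counts reflects the number of cells that use it and the amount of transcript in each, and in bulk RNA these cannot be told apart.

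The libraries held 16732644 and 16245849 counts on genes, so that 3 counts, used here as the floor of detection, equal 0.179 and 0.185 CPM (counts per 1000000 counts on genes). Ddx3y, on the Y chromosome, was at 146.4 CPM in replicate 1 and 0 in replicate 2. Xist, which is transcribed from the inactive X, was at 2.03 and 1555 CPM. The libraries thus differ in sex-linked genes, with the pattern of male cells in replicate 1 and of female cells in replicate 2. Any difference between the replicates therefore cannot be told apart from a difference between the sexes. Sample titles call the cells CD4-CD8- while the cell type field calls them CD8+. The data showed Cd8a at 164.8 ± 9.32 CPM and Cd8b1 at 780.3 ± 7.41 CPM (SD, n = 2), and Cd4 at 12 and 27 counts. Cd4 is not the only marker of the CD4 lineage, so its counts do not show that such markers are absent. Counts per gene do not separate transcripts of the Rosa26 transgenes from those of the altered Cd8 locus. They therefore do not settle which of the CD8 labels is right. H2-Ab1, the gene targeted in I-Ab-/- mice, had 395 and 292 counts (20.8 ± 3.98 CPM), which goes against a complete loss of its transcript. Counts per gene do not show whether these reads lie in the deleted part, so they do not check the deletion. All 11 markers of mature alpha-beta thymocytes were above 1 CPM in both libraries, with a summed level of 4061 and 3701 CPM. The gate for mature thymocytes required the TCR beta chain on the cell surface, so the presence of beta chain transcripts is what the sort selected and not a finding. Markers of other cells were summed as well. The 5 gamma-delta T-cell markers reached 53.9 and 50.9 CPM and the 5 markers of CD4+CD8+ thymocytes 39.7 and 36.5 CPM. Most of the latter sum came from Cd1d1 (25.5 and 22.2 CPM) and Dntt (13.4 and 13.0 CPM). Rag1 was at 8 and 19 counts, Rag2 at 4 and 1, and Ptcra at 2 in each. The 4 myeloid markers summed to 14.8 and 15.9 CPM, the 4 thymic epithelial markers to 3.17 and 3.51 CPM, and the 3 erythroid markers to 0.478 and 0.616 CPM with Hba-a1 and Hbb-bs at 0. Their part in the Trbv counts was not tested.

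Segment ends were read from the GENCODE M21 transcripts (GRCm38) to show what distinguishes the most used segments. The last 60 bases of the V exon are given 5′ to 3′ for both families with several annotated V genes (Trbv12 and Trbv13), the other highly used segments Trbv3, Trbv16, Trbv29 and Trbv1, and Trbv31, the segment in opposite orientation. Capitals mark the conserved cysteine codon, found as the first in-frame TGT or TGC within the last 24 bases, and everything after it, which is the germline start of the third complementarity-determining region.
Trbv12-1, chr6:41114008-41114067, plus strand: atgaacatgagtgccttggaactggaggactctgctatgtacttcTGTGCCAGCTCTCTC
Trbv12-2, chr6:41119305-41119364, plus strand: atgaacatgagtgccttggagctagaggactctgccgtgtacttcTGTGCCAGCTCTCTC
Trbv13-1, chr6:41116409-41116468, plus strand: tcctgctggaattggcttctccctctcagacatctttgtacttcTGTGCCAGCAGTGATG
Trbv13-2, chr6:41121773-41121832, plus strand: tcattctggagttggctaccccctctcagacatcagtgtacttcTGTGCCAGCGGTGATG
Trbv13-3, chr6:41130526-41130585, plus strand: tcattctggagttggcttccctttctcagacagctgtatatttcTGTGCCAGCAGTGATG
Trbv3, chr6:41048769-41048828, plus strand: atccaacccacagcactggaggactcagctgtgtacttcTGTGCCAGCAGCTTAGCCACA
Trbv16, chr6:41152171-41152230, plus strand: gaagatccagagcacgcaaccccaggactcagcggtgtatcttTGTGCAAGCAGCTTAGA
Trbv1, chr6:40891826-40891885, plus strand: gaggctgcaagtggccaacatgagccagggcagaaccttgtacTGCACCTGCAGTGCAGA
Trbv29, chr6:41271822-41271881, plus strand: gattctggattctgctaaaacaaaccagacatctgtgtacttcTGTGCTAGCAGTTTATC
Trbv31, chr6:41557693-41557752, minus strand: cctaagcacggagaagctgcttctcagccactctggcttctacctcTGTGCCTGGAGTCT
The germline part in capitals ran from 14 to 21 bases among these segments. Trbv12-1 and Trbv12-2 ended in the same 15 bases, and Trbv13-1 and Trbv13-3 in the same 16. Such ends are trimmed during joining, so a read over the junction alone does not tell these segments apart, whereas reads over the body of the V exon do.

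Both numbered families are near-copies, which bears on how far their counts can be trusted. Over the coding sequence, Trbv13-2 and Trbv13-3 were 90.6% identical, Trbv12-1 and Trbv12-2 88.2%, Trbv13-1 and Trbv13-2 87.9%, and Trbv13-1 and Trbv13-3 85.3%. The 589 pairs outside the numbered families had a median identity of 50.5%, with a maximum of 75.8% for Trbv23 and Trbv24. The longest runs shared by 2 segments were the following, shown because a 50-base read that lies within one cannot be assigned.
Trbv13-2 and Trbv13-3: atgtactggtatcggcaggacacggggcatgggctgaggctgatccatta
Trbv12-2 and Trbv12-3: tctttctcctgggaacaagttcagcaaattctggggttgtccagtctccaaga
The first run is 50 bases long and the second 53. Of the 50-base windows along the transcripts, 290 of 291 in Trbv13-2 and in Trbv13-3, 332 of 336 in Trbv12-2 and 319 of 323 in Trbv12-3 occurred in no other annotated transcript. Reads of 50 bases without mismatches can therefore be assigned to these segments at nearly every position.

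Trbv rows summed to 8196 and 7902 counts in the 2 libraries, which is 489.8 and 486.4 CPM (mean 488.1 ± 2.42, SD, n = 2). Of the 35 segments, 22 were above the floor of 3 counts in both libraries, 4 were at or under it in at least 1 library, and 9 had no count in either. The 22 detected segments were 21 of the 22 annotated V genes and 1 of the 13 pseudogenes. V genes held 99.5% and 99.63% of the Trbv counts, and all pseudogenes together had 41 and 29 counts.

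Trbv12-2, known in older nomenclature as V5.1, was the most used segment. Its counts were 1218 and 1230 in replicates 1 and 2, a share of 14.9% (Wilson 95% interval 14.1 to 15.7) and 15.6% (14.8 to 16.4), or 15.2 ± 0.50% (SD, n = 2). Trbv3 (V16) followed with 772 and 713 counts, 9.22 ± 0.28% of all Trbv counts. Trbv16 (V11) had 684 and 644 counts, 8.25 ± 0.14%. The ranges of the 2 libraries did not overlap between Trbv12-2 and Trbv3, nor between Trbv3 and Trbv16. The Wilson intervals of Trbv3 and Trbv16 did overlap, at 8.81 to 10.1% and 7.77 to 8.96% in replicate 1. Second place was lost by Trbv3 once transcript length was taken into account, since it then held 7.92% per kb of exon against 8.10% for Trbv16 and 8.90% for Trbv13-2. These intervals and the floor describe counting error alone, because PCR copies could not be separated from independent molecules.

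Trbv13-2 (V8.2) came next with 591 and 654 counts, 7.74 ± 0.75%. Trbv12-1 (V5.2) had 611 and 590 counts, 7.46 ± 0.01%, and Trbv13-1 (V8.3) had 564 and 527, 6.78 ± 0.15%. Trbv13-2 lay above Trbv12-1 in replicate 2 and below it in replicate 1, so the order of this pair is not resolved, and the same holds for Trbv16 and Trbv13-2. Trbv29 (V7) had 485 and 515 counts, 6.22 ± 0.42%. Although the RefSeq table types Trbv29 as a pseudogene, GENCODE types it as a V gene, no stop codon was found in frame before its cysteine codon, and it ranked 7 of 35.

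Trbv13-3 (V8.1) had 495 and 409 counts, 5.61 ± 0.61%, and Trbv1 (V2) had 510 and 384, 5.54 ± 0.96%. Trbv19 (V6) had 376 and 394 counts, 4.79 ± 0.28%. These 3 segments, with Trbv29 above them, formed a stretch in which each overlapped the next in the range of its 2 libraries. Trbv14 (V13) had 286 and 309 counts, 3.70 ± 0.30%, and Trbv2 (V4) had 313 and 276, 3.66 ± 0.23%. These 12 segments held 84.2 ± 0.11% of all Trbv counts, and the first 5 held 47.9 ± 0.84%.

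The remaining detected segments ran from 3.51% (Trbv15) down to 0.25% (Trbv30). Trbv15 and Trbv17 overlapped in range, with 265 and 300 counts against 284 and 257. Trbv31 had 196 and 244 counts, 2.74 ± 0.49%. Trbv26, Trbv20, Trbv5 and Trbv4 lay between 1.79% and 0.59%, and Trbv24, Trbv23 and Trbv30 between 0.36% and 0.25%. Along the whole order of 22 segments, 11 of 21 pairs of neighbours overlapped in the range of the 2 libraries and 10 did not. These ranges leave out counting error, so a pair that lies apart is not thereby resolved. Trbv4 and Trbv24 lay apart with 38 and 36 counts in replicate 1, where their Wilson intervals overlapped (0.34 to 0.64% and 0.32 to 0.61%).

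The effective number of segments, the exponential of the Shannon entropy of the shares, was 16.24 in replicate 1 and 16.01 in replicate 2, against 35 listed and 22 detected.

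**Figure D1:**
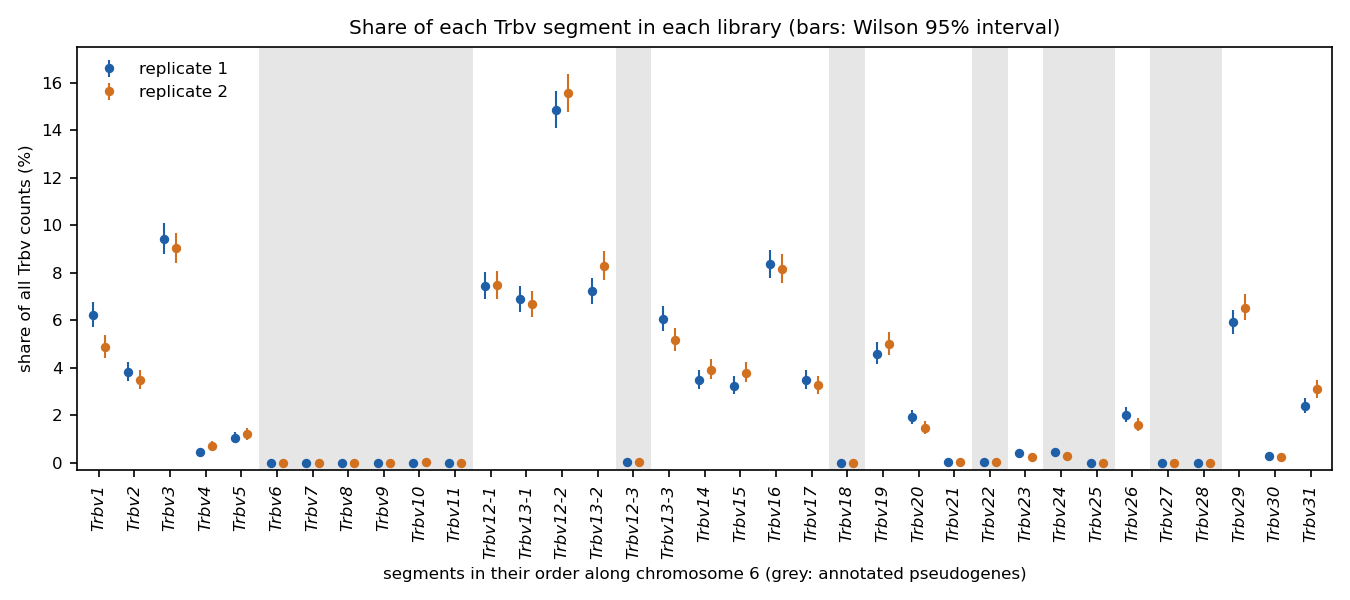
Share of all Trbv counts (y axis, %) for the 35 segments in their order along chromosome 6 (x axis). Points are the 2 libraries, bars are Wilson 95% intervals and grey bands mark annotated pseudogenes. Trbv12-2 stands highest at 14.9% and 15.6%, and every pseudogene lies under 0.5%.

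Within the families of close copies, use was unequal for Trbv12 and less clearly so for Trbv13. The 3 Trbv12 segments together held 22.4% and 23.1% of the Trbv counts, and the 3 Trbv13 segments 20.1% in each library. Trbv12-2 had 1.99 and 2.09 times the counts of Trbv12-1 in the 2 libraries, and Trbv12-3, the pseudogene of the family, had 3 and 4 counts. Trbv13-2 had 1.05 and 1.24 times the counts of Trbv13-1 and 1.19 and 1.60 times those of Trbv13-3. The first of these ratios thus moved little between the libraries, while both Trbv13 ratios were higher in replicate 2. In replicate 1 the Wilson intervals of the shares of Trbv13-2 and Trbv13-1 overlapped (6.67 to 7.79% and 6.35 to 7.45%). Per unique window, Trbv12-2 was at 2.09 ± 0.07 times Trbv12-1, and Trbv13-1 at 1.11 ± 0.10 times Trbv13-3. On that scale Trbv13-2 was at 1.25 ± 0.15 times Trbv13-1 and 1.40 ± 0.29 times Trbv13-3.

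By position, the 10 consecutive segments from Trbv12-1 to Trbv17 held 61.7 ± 0.92% of the counts. This grouping was chosen after the values were seen. The order of the 21 plus-strand V genes along the locus was weakly related to their share as a description (Pearson's r -0.26, Spearman's rho -0.41, across segments that share both libraries). Trbv31, which lies downstream of Trbc2 on the minus strand at chr6:41557691-41558452, was used at a middle level and ranked 15.

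Segments annotated as pseudogenes were nearly absent. Trbv6, Trbv7, Trbv8, Trbv9, Trbv11, Trbv18, Trbv25, Trbv27 and Trbv28 had 0 counts in both libraries, which allows a level of up to 0.179 and 0.185 CPM for each. Trbv10 had 0 and 1 count, Trbv22 had 2 and 2, and Trbv12-3 had 3 and 4. Trbv8 lies wholly inside an exon of another annotated transcript, AC153851.1, and has no window of its own. AC153851.1 is not a row of the tables used here, so how reads over Trbv8 were assigned is unknown. Among the annotated V genes, Trbv21 alone was at or under the floor, with 3 and 1 counts, although 332 windows of its transcript occurred in no other gene.

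Trbv24 (V17) was the only pseudogene above the floor, at 36 and 22 counts, a share of 0.36 ± 0.11%. By mean share it ranked 20, beside the V genes Trbv23 (35 and 18 counts) and Trbv30 (22 and 18), and its order against Trbv23 was not resolved, since their ranges overlapped. GENCODE types it as a pseudogene and RefSeq as a V segment. The end of its V exon is shown beside that of Trbv26, which is 73.5% identical to it, with capitals marking an in-frame stop codon where one was found, and the cysteine codon to the end.
Trbv24, chr6:41218498-41218557, plus strand: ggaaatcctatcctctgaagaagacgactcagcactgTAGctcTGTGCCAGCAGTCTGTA
Trbv26, chr6:41227934-41227993, plus strand: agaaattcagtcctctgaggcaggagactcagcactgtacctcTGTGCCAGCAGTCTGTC
Trbv24 held 1 stop codon in frame before its cysteine codon, TAG, at 2 codons before it. No stop codon was found in frame before the cysteine codon of Trbv26, which had 164 and 125 counts, 1.79 ± 0.30%.

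The 2 libraries agreed closely in usage. Across the 22 detected segments, the log2 shares correlated at r 0.983 and the ranks at rho 0.983, and the median absolute difference in log2 share was 0.19. The extremes were segments with few counts, at -0.91 for Trbv23 and 0.61 for Trbv4 (log2 share, replicate 2 minus replicate 1). Summing the lower of the 2 shares over the segments, the libraries had 95.1% of their usage in common. Shares had overlapping Wilson intervals in 21 of these 22 segments, and Trbv1 was the exception. Such overlap is a lenient criterion and was not counted for other genes, so it does not show that the other segments were equal.

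An exact binomial test (two-sided) on all 15949 genes with at least 10 counts set replicate 2 against replicate 1. It compares these libraries and not conditions. With a threshold of 0.05 on the Benjamini-Hochberg adjusted p and a minimum difference of 2-fold, 242 genes differed (1.52%), and 0 of the 22 Trbv segments tested were among them. In this test 8 of the 22 segments had an unadjusted p under 0.05, a threshold at which the share of all genes was not counted. At the adjusted p alone, 16.3% of all genes differed and 1 of the 22 segments did. That segment was Trbv1, whose level was 30.5 CPM in the first library and 23.6 CPM in the second, a log2 ratio of -0.37 (95% counting interval -0.56 to -0.18; exact binomial test, Benjamini-Hochberg adjusted p = 0.00235). Trbv13-3 at -0.23 (adjusted p = 0.0839) and Trbv31 at 0.36 (adjusted p = 0.0583) did not pass. Over the alternatives run, the adjusted p of Trbv1 went from 0.000156 with TMM library sizes to 1 with edgeR's exact test, which adds a fixed biological coefficient of variation of 0.1 and in which Trbv1 no longer passed.

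**Figure D2:**
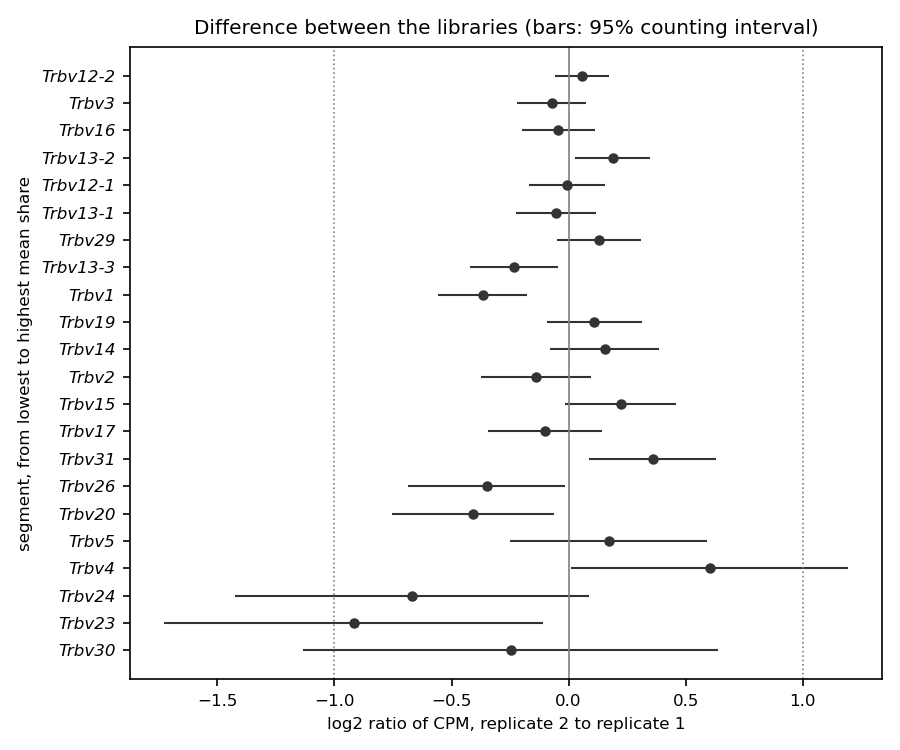
Log2 ratio of CPM in replicate 2 to replicate 1 (x axis) for the 22 detected segments, ordered by mean share (y axis). Bars are 95% counting intervals and dotted lines mark a 2-fold difference. Trbv1 lies at -0.37, and the wide intervals at the bottom belong to segments with few counts.

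Counts were also divided by the number of 50-base windows of each segment's transcript that occur in no other gene, and 11 of the 22 detected segments then changed rank. Trbv12-2 remained first at 14.8 ± 0.36% of the summed counts per window. Trbv13-2 moved from rank 4 to rank 2 (8.60 ± 0.77%), and Trbv3 from rank 2 to rank 4 (7.32 ± 0.28%), with Trbv16 between them (7.61 ± 0.19%). Trbv19 and Trbv2, whose annotated transcripts are longest among the V genes shown (517 and 511 unique windows), fell from ranks 10 and 12 to ranks 14 and 16. Trbv5 (V1), at 86 and 94 counts, moved from rank 18 to rank 9, with 5.01 ± 0.40% of the summed counts per window against 1.12 ± 0.10% of the counts. Trbv4 (V10), at 38 and 56 counts, moved from rank 19 to rank 17.

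Both segments overlap another gene in the annotation. The long noncoding gene 5830405F06Rik, on the same strand, covers 292 exonic bases of Trbv5 and 295 of Trbv4 and leaves them 72 of 319 and 96 of 344 windows. This gene is listed in the tables, with 40 and 55 counts. Reads over the shared bases may have been set aside as ambiguous, depending on the counting mode, which is not given in the sources used here, so the shares of Trbv5 and Trbv4 are uncertain. Without removing the shared windows, Trbv5 had 1.19% and rank 18.

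**Figure D3:**
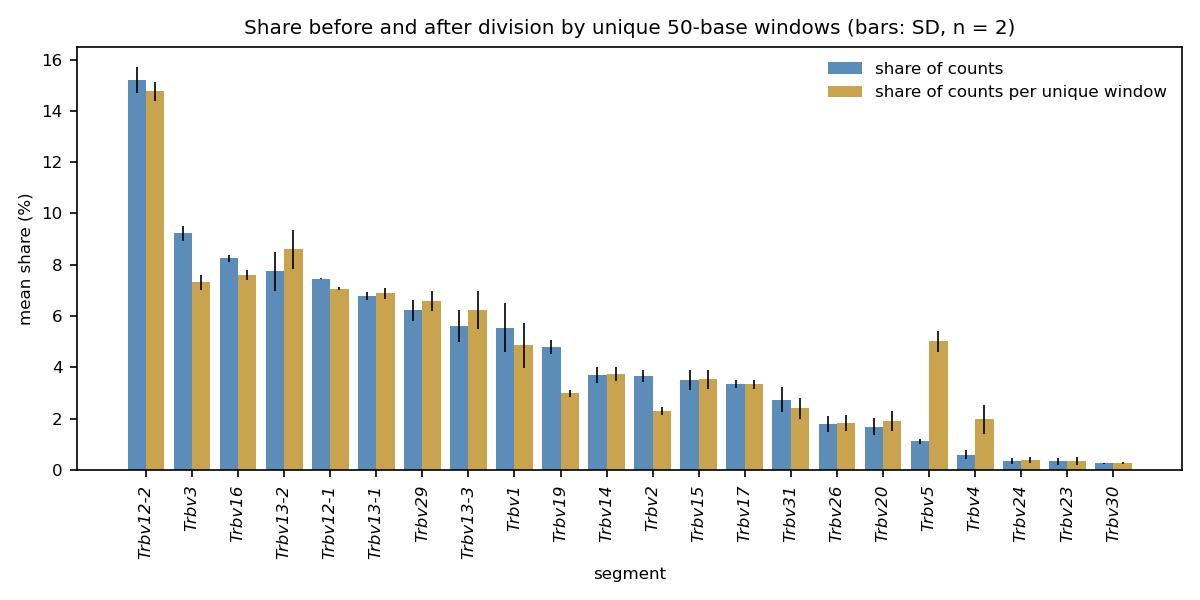
Mean share (y axis, %) of the 22 detected segments (x axis) by counts and by counts per unique 50-base window, with bars for the SD (n = 2). Trbv5 rises from 1.12% to 5.01%, Trbv19 and Trbv2 decrease, and Trbv12-2 stays highest on both scales.

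Invariant natural killer T (iNKT) cells pair a single alpha chain with beta chains that use Trbv13, Trbv29 or Trbv1. The 5 segments Trbv1, Trbv13-1, Trbv13-2, Trbv13-3 and Trbv29 held 32.3% and 31.5% of the Trbv counts, 31.9 ± 0.55% (SD, n = 2), a grouping chosen after the values were seen. The individual members ranked 4, 6, 7, 8 and 9. Trav11 and Trav11d, the V segments of the invariant alpha chain, had 0 counts in both libraries. Shared windows were counted for genes of the Trb locus only. Whether reads can be assigned to Trav11 and Trav11d is therefore unknown, and 0 counts do not show that the invariant chain is absent. Zbtb16, the transcription factor PLZF of innate-like T cells, was at 18.2 and 21.6 CPM. Conventional alpha-beta T cells use the same Trbv segments, so their share alone does not count iNKT cells.

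Constant genes of the locus are joined to beta chain transcripts whatever V segment these use. Trbc1 was at 1815 and 1876 counts (112 ± 4.95 CPM) and Trbc2 at 4300 and 4305 (261 ± 5.66 CPM), a ratio of Trbc2 to Trbc1 of 2.33 ± 0.05 (SD, n = 2). Their transcripts are near-copies, and 405 of 688 windows of Trbc1 and 360 of 643 of Trbc2 occurred in no other gene, so reads over the rest may have been lost or split. Summed counts per unique window were 25.3 and 24.7 for the Trbv rows and 16.4 and 16.6 for the Trbc rows, a ratio of 1.51 ± 0.04. The Trbv sum was the higher, although a receptor transcript with a V segment also holds a constant region. These sums therefore do not measure the number of transcripts on a common scale, and the reason was not tested.

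The genes that lie among the V segments had almost no counts. Of 27 listed genes inside the locus that are not Trb genes, among them the trypsinogen genes Try4, Try5 and Prss1, 24 had 0 counts in both libraries. Only 5830405F06Rik, the noncoding gene over Trbv4 and Trbv5, and the trypsinogen gene Prss2, at 5 and 11 counts, were above the floor in both. Prss2 is the closest of these to Trbd1 and the J segments.

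**Figure D4:**
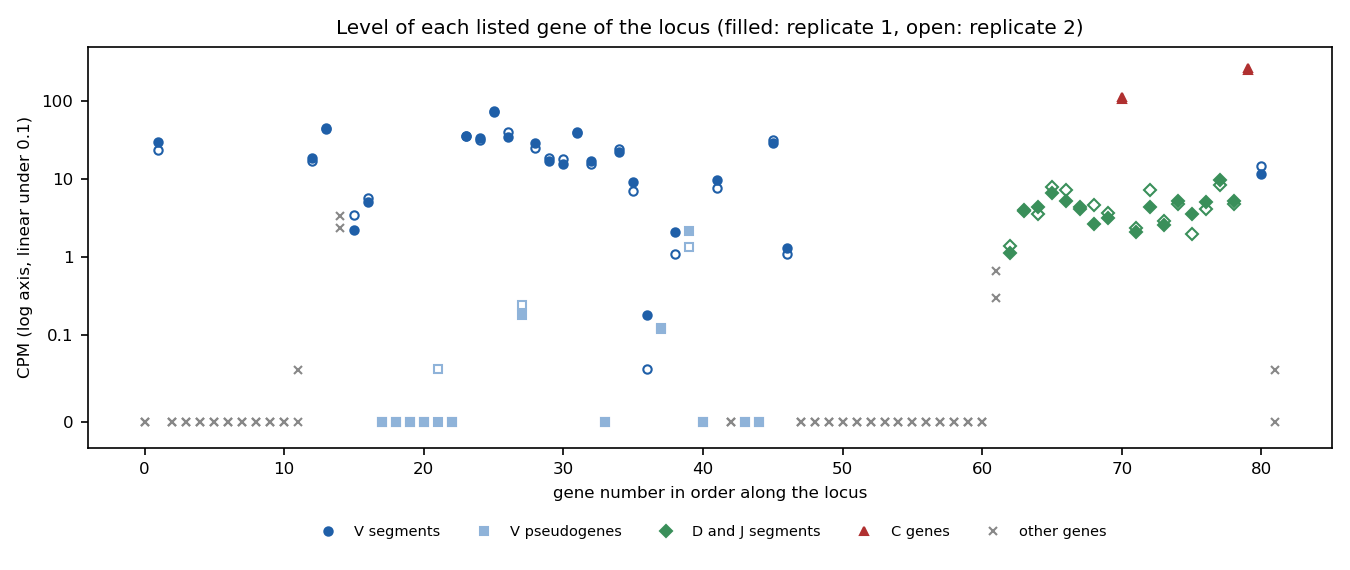
CPM (y axis, logarithmic above 0.1) of each listed gene of the locus in its order along the chromosome (x axis), filled for replicate 1 and open for replicate 2. By the mean of both libraries, Trbc1 and Trbc2 stand highest at 112 and 261 CPM, V segments reach 74.3 CPM, and most other genes lie at 0.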

How the data were processed

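Poly(A) RNA of sorted mature thymocytes was sequenced by the authors as 50-base single-end reads, mapped to mm10 with TopHat 2.1.1 and counted per gene with HTSeq 0.6.1. The deposited values are raw counts per gene symbol, without normalization. The annotation, strand setting and overlap mode are not given in the sources used here. CPM was computed from the total on genes. Rows for reads with no feature, which were 55.9% of uniquely aligned reads in each library, and ambiguous reads (3.52% and 2.92%) were left out. Segment types, positions and windows came from GENCODE M21 (longest transcript of each gene). Wilson intervals and exact binomial tests with Benjamini-Hochberg adjustment used scipy 1.17.1 and statsmodels 0.14.6. The binomial test, but not the intervals, was tried on simulated data. That simulation held counting error only, so it does not cover variation beyond counting error between these libraries. Alternative library sizes came from edgeR 4.0.16 and DESeq2 1.42.0, and the fixed-variation test from edgeR. Any Trbv row could be named. The rule gave counts per library for the 12 segments with the highest share and any that differed between libraries, and the names of those at or under the floor. Counts of other segments were printed after their values were seen. Members, lists and groupings were chosen with earlier results of these data known. The labels do not describe the animals, although the sex-linked genes show that the libraries did not come from the same one. P-values measure only the difference between these libraries. The recombination signals beside the segments were not analysed here, and a further marker list is not reported here.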

Additional observations from a re-analysis of the deposited data

How the results depend on the processing

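Library sizes from edgeR's TMM or DESeq2 left the Trbv total at 488.3 CPM, and totals without ribosomal RNA genes raised it to 557.7 CPM, with 426 CPM for the Trbc genes and 78.0 CPM for the J segments. Leaving out each library gave 486.4 to 489.8 CPM for the Trbv total, 365.5 to 380.5 CPM for Trbc, 66.2 to 70.4 CPM for Trbj and 14.9 to 15.6% for Trbv12-2, and 11 to 12 of the first 12 segments stayed in the first 12. The share of Trbv12-2 was 15.3% among annotated V genes only, 15.4% per kb of exon and 14.8% per unique window. Of the first 12 segments, 10 stayed there per kb of exon and per unique window. The alternative that kept the windows of Trbv4 and Trbv5 shared with 5830405F06Rik was chosen after seeing the data. The genes that differed at least 2-fold between the libraries numbered 242 and fell to 55 with a minimum of 100 counts (fewer genes tested) and to 60 with edgeR's exact test; with TMM or DESeq2 sizes 98 were higher in replicate 2 and 99 in replicate 1, against 150 and 92. By adjusted p alone, 2 of 22 segments differed with TMM or DESeq2 sizes (Trbv1 and Trbv13-3), beside 1683 and 1684 of all 15949 genes. With a minimum of 100 counts, 2 of 18 segments differed (Trbv1 and Trbv31), beside 2622 of 10969 genes. In edgeR's exact test 0 of 22 segments differed, beside 74 of 15949 genes. No segment differed 2-fold under any of these alternatives. Both minimums for detection, 10 counts or 1 CPM in both libraries, kept 22 segments. A difference between libraries has no value without either library. No paired analysis was possible because there was a single group. At this depth the order of Trbv24, Trbv23 and Trbv30 was not resolved.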

Other observations

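The D and J segments of the locus were listed as well. The 14 J segments had 1108 and 1144 counts in all (68.3 ± 2.97 CPM), with 508 and 581 in the Trbj1 cluster and 600 and 563 in the Trbj2 cluster, and the 2 D segments had 54 and 62 counts. Trbj2-6, which GENCODE types as a pseudogene, had the highest J count at 162 and 139, followed by Trbj1-3 at 112 and 129. J exons are about as long as a read, so their counts hold only reads that could be placed on them and are no measure of J usage beside the V shares. Between the libraries, 3 of the 14 J segments passed the exact binomial test at the adjusted p alone, as did 16.3% of all genes, and 0 of them reached the 2-fold minimum. They were Trbj1-6 (45 and 77 counts, adjusted p = 0.021), Trbj2-1 (74 and 119, adjusted p = 0.00711) and Trbj2-4 (60 and 32, adjusted p = 0.042). The 128 Trav rows, the V segments of the alpha chain, summed to 133.9 ± 2.39 CPM against 488.1 ± 2.42 CPM for the Trbv rows. Shared windows were not counted for the Trav rows, so these sums do not compare the levels of alpha and beta transcripts. The constant gene of the alpha chain, Trac, was at 433.9 and 399.9 CPM. Trbc1 and Trbc2 together were at 365.5 and 380.5 CPM.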
